A study of Mus musculus with 8 samples.

Results

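Gene expression was measured by poly(A) RNA sequencing of whole gastrocnemius muscle, and the 10 genes described here encode the core of the insulin pathway to glucose uptake: Insr, Irs1, Irs2, Pik3r1, Pik3ca, Akt1, Akt2, Tbc1d1, Tbc1d4 and Slc2a4. They were chosen by name from the count table of 48709 genes, in which all 10 were found, and all 10 were among the 14712 genes tested. The 4 libraries E, F, G and H came from 16-week-old C57BL/6 mice labelled GR(i)skm-/-, in which floxed alleles of the glucocorticoid receptor gene were to be removed from myofibres by HSA-Cre-ERT2, a tamoxifen-activated Cre driven by the human skeletal actin promoter. The 4 libraries A, B, C and D came from control mice of the same age and strain that carried the floxed receptor gene, so the floxed alleles were common to both groups. That promoter is active in fibres, so the other cells of the muscle were to keep the receptor. Whether a library stands for 1 mouse is not stated in the labels, and the spread behind every p-value is that of the libraries, which may be technical.

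Insulin binds its receptor, a tyrosine kinase, which phosphorylates the docking proteins IRS1 and IRS2. These recruit phosphoinositide 3-kinase, a dimer of a regulatory and a catalytic subunit, whose lipid product brings the kinase AKT to the membrane. AKT phosphorylates the Rab GTPase-activating proteins TBC1D1 and TBC1D4, which otherwise hold vesicles with the glucose transporter GLUT4, the product of Slc2a4, inside the fibre. Skeletal muscle takes up most of the glucose cleared after a meal, and glucocorticoids are known to lower its response to insulin.

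The targeted gene Nr3c1 did not follow the label in every library. In library-scaled counts (CPM, scaled by the TMM method), the libraries labelled knockout E to H held 87.1, 38.6, 96.7 and 42.8, and controls A to D held 83.2, 89.6, 84.7 and 90.0. Libraries E and G were thus within or above the control range. With all libraries the log2 fold change of Nr3c1 was -0.39 (edgeR adjusted p = 0.452). Without E and G it was -1.09, given with no test because these libraries were set apart by their Nr3c1 level. Results below are given with all libraries and, for calls of named genes and list counts that then change, without E and G. Library totals ran from 37944368 to 52200305 counts in the libraries labelled knockout and from 36680510 to 44987629 counts in the controls. Genes typical of fast fibres summed to 168308 to 196394 CPM in the libraries labelled knockout and 186146 to 238619 CPM in the controls. By the test across all genes, 1243 of 14712 genes (8.45%) differed at an adjusted p under 0.05. In the libraries labelled knockout 4.04% were higher (594 genes) and 4.41% lower (649 genes), and with scaling by library size alone 936 were higher and 405 lower.

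Of the 10 insulin pathway genes, Tbc1d4 and Pik3ca rose and Akt1 fell in the libraries labelled knockout, and 7 did not pass the test. That is 3 of 10 called, against 8.45% of all genes tested. With the trend of each library on transcript GC content removed it was 1 of 10, against 4.64% of all genes, and by the DESeq2 Wald test 4 of 10, against 13.8%. In 4 genes, these 3 and Insr, the libraries of the groups did not overlap, as was true of 16.7% of all genes tested. The median log2 fold change of the 10 was -0.07, against -0.01 over all genes. Tbc1d4 had the widest difference, at 1.58-fold. Without libraries E and G none of the 10 passed the edgeR test (0 of 10, against 1.49% of the 15183 genes then tested, both at an adjusted p under 0.05). At an unadjusted p under 0.05 there were 4 of the 10. Counts at an unadjusted p, here and below, have no share of all genes beside them. No excess over all genes can be read from such counts. Without E and G the log2 fold changes of Tbc1d4, Pik3ca and Akt1 were 0.62, 0.30 and -0.32, against 0.66, 0.31 and -0.28 with all libraries. Fewer cells of a type and less RNA per cell cannot be told apart in bulk tissue.

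**Figure D1:**
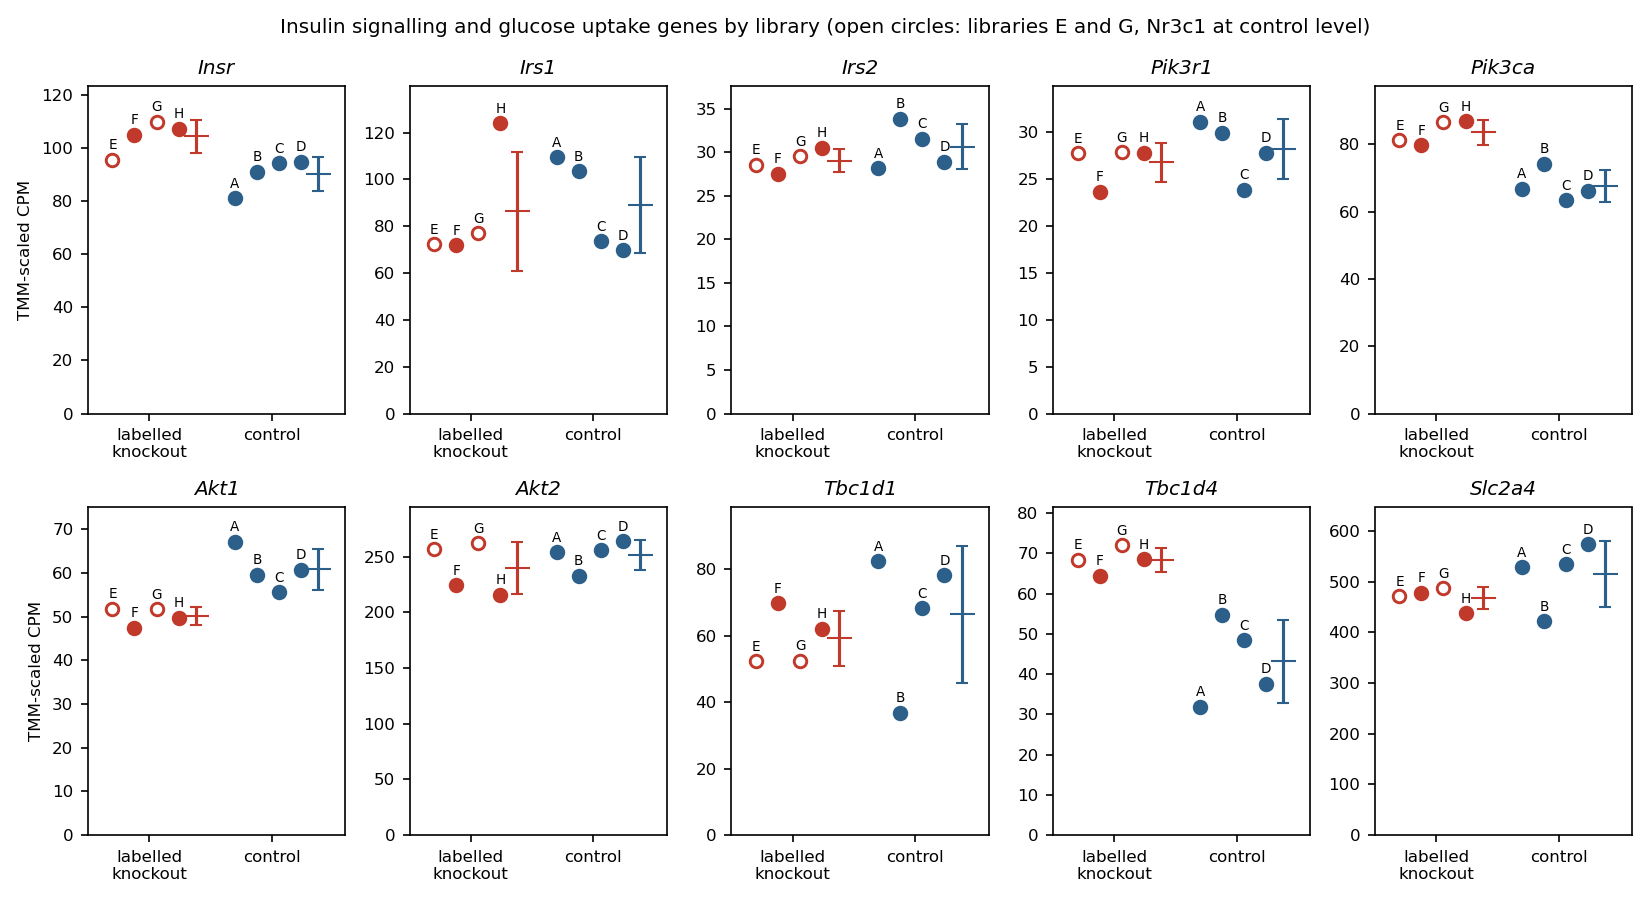
TMM-scaled CPM (vertical axes, from 0) of each of the 10 genes in the 4 libraries labelled knockout (red, left) and the 4 control libraries (blue, right), lettered by library, with the mean ± SD beside each group. Open circles are libraries E and G, where Nr3c1 was at control level, and in Tbc1d4, Pik3ca, Akt1 and Insr the groups do not overlap.

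The promoters of the 3 genes that passed the test are shown because they allow the sequence at the start of each transcript to be read beside its change. They are RefSeq windows on GRCm38.p6, from 250 bases before to 50 bases after an annotated start, 5′ to 3′ on the strand of the gene. Such windows were found for 8 of the 10 genes, 14 windows in all. Capitals mark the hexamer of the glucocorticoid receptor element (TGTTCT, or AGAACA on the other strand) and the SP1 site (GGGCGG, or CCGCCC on the other strand). The windows are chr14:101609142-101609441 on the minus strand for Tbc1d4, chr3:32396815-32397114 on the plus strand for Pik3ca, and chr12:112674227-112674526 on the minus strand for Akt1, which has a further start upstream.
Tbc1d4: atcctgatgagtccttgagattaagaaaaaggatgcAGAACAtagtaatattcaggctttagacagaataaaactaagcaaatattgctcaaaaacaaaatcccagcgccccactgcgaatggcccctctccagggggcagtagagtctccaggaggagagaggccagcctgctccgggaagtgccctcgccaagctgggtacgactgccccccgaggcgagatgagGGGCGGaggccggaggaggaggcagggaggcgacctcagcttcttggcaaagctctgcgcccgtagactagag
Pik3ca: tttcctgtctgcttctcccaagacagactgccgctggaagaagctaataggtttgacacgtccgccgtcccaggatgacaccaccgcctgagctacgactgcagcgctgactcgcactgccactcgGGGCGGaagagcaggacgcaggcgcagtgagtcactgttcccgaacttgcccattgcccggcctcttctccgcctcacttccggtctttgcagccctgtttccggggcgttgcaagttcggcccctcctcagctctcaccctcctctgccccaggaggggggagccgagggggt
Akt1: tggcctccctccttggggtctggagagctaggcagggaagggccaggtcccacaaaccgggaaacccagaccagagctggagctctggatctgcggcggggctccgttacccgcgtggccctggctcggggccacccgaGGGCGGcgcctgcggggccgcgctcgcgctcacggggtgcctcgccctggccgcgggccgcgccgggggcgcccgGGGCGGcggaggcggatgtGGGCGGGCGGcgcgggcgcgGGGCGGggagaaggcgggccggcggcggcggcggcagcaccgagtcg
The Tbc1d4 window held 1 hexamer, at position -214 from the start, and 1 SP1 site. The Pik3ca window held 1 SP1 site and the Akt1 window 5, of which 1 pair overlaps, with no hexamer in either. The window of the upstream Akt1 start held neither. Hexamers were in 2 of the 14 windows of these genes, one each for Tbc1d4 and Tbc1d1, and in 19.0% of all 32851 promoter windows. SP1 sites were in 8 of the 14 and in 35.7% of all windows. The full palindromic element, AGAACA and TGTTCT with 3 bases between them, contains the hexamer at each end and was in none of the 14 windows and in 3 of all 32851. The base composition of the windows also differed: GC content was 55.7% for Tbc1d4, 63.3% for Pik3ca and 79.7% for Akt1.

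The insulin receptor gene Insr (chromosome 8, 3122061 to 3279617, minus strand, coordinates of all genes from GENCODE M21 on GRCm38) was at 95.5, 105, 110 and 107 CPM in libraries E to H, and at 81.0, 91.0, 94.3 and 94.7 CPM in control libraries A to D. Every library labelled knockout lay above every control, with library E only just above control library D. The log2 fold change was 0.21 ± 0.07 (SE, n = 4 each), a 1.16-fold difference with an adjusted p of 0.0918 by edgeR. It passed by the DESeq2 Wald test (adjusted p = 0.0459) and in edgeR scaled by library size alone (adjusted p = 0.0461).

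Neither IRS docking protein gene passed the test. Irs1 (chromosome 1, 82233101 to 82291416, minus strand) was at 72.3, 71.9, 77.1 and 124 CPM in libraries E to H, and at 110, 103, 73.5 and 69.8 CPM in control libraries A to D. Both groups held libraries near 70 CPM and libraries above 100 CPM, so the groups overlapped over nearly their whole range. Its log2 fold change was -0.04 ± 0.22 (SE, n = 4 each; edgeR adjusted p = 0.918), and without libraries E and G the sign turned, to 0.14. The Irs1 exons share 30.9% of their length with Gm9747, a gene on the opposite strand, which was at 0.0246 CPM in the libraries labelled knockout and 0.0112 CPM in controls. Irs2 (chromosome 8, 10984681 to 11008458, minus strand), the other main docking protein, was at 28.6, 27.5, 29.6 and 30.6 CPM in libraries E to H, and at 28.2, 33.9, 31.6 and 29.0 CPM in control libraries A to D. Irs2 therefore varied far less than Irs1, and its groups also overlapped (log2 fold change -0.08 ± 0.07, edgeR adjusted p = 0.527).

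Of the phosphoinositide 3-kinase subunit genes Pik3ca (catalytic) and Pik3r1 (regulatory), Pik3ca rose and Pik3r1 did not pass the test. Pik3ca (chromosome 3, 32397671 to 32468486, plus strand), which encodes the catalytic subunit p110 alpha that makes the lipid signal, was at 81.2, 79.8, 86.6 and 87.0 CPM in libraries E to H, and at 66.8, 74.2, 63.4 and 66.3 CPM in control libraries A to D. All 4 libraries labelled knockout lay above all 4 controls. Pik3ca averaged 83.6 ± 3.67 CPM in the libraries labelled knockout and 67.7 ± 4.63 CPM in controls (SD, n = 4 each). The difference was 1.24-fold, or 0.31 ± 0.07 on the log2 scale (edgeR adjusted p = 0.0207). The call ended with the GC trend removed, at a log2 fold change of 0.12 (adjusted p = 0.26), and without libraries E and G, at 0.30 (adjusted p = 0.123). Leaving out A, C, G or H singly also ended it, with adjusted p-values up to 0.0754.

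Pik3r1 (chromosome 13, 101680563 to 101768217, minus strand) encodes the regulatory subunit p85 alpha, which binds IRS proteins and stabilises and restrains the catalytic subunit, and in cultured mouse myotubes it has been described as a direct target of the glucocorticoid receptor. Pik3r1 was at 27.8, 23.7, 27.9 and 27.9 CPM in libraries E to H, and at 31.1, 30.0, 23.9 and 27.8 CPM in control libraries A to D. The groups overlapped, with the lowest control, C, beside the lowest library labelled knockout, F (log2 fold change -0.07 ± 0.09, edgeR adjusted p = 0.639).

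Within a library, the ratio of Pik3r1 to Pik3ca counts does not depend on how libraries are scaled. It was 0.342, 0.296, 0.322 and 0.320 in libraries E to H, and 0.466, 0.404, 0.377 and 0.420 in control libraries A to D. Each library labelled knockout had a lower ratio than each control, by 0.38 on the log2 scale (two-sided exact permutation p = 0.0286, the smallest that 4 against 4 allows, and p = 0.114 adjusted over the 4 ratios compared). With the GC trend removed the difference was -0.28 and without libraries E and G it was -0.43, where the smallest possible p is 0.133.

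Of the AKT kinases, Akt1 fell and Akt2 did not pass the test. Akt1 (chromosome 12, 112653821 to 112674884, minus strand), the more widely expressed form and linked chiefly to growth, was at 51.8, 47.5, 51.7 and 49.8 CPM in libraries E to H, and at 67.2, 59.6, 55.6 and 60.7 CPM in control libraries A to D. All 4 libraries labelled knockout were below all 4 controls. The means were 50.2 ± 2.04 CPM in the libraries labelled knockout and 60.8 ± 4.79 CPM in controls (SD, n = 4 each), and Akt1 fell by 0.28 ± 0.07 on the log2 scale (edgeR adjusted p = 0.0341). With the GC trend removed the log2 fold change was -0.12 (adjusted p = 0.288), and with scaling by library size alone it was -0.20 (adjusted p = 0.132). Without libraries E and G it was -0.32 (adjusted p = 0.12), and leaving out A, D, F, G or H singly also ended the call, with adjusted p-values up to 0.0934.

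Akt2 (chromosome 7, 27591552 to 27640826, plus strand), the form required for insulin-stimulated glucose uptake in mice, was at 257, 225, 262 and 216 CPM in libraries E to H, and at 254, 233, 256 and 264 CPM in control libraries A to D. The libraries labelled knockout with control-level Nr3c1, E and G, were at the level of the higher controls, and F and H were below every control. The part of Nr3c1 level in this order was not tested. With E, F, G and H together the log2 fold change was -0.07 ± 0.08 (edgeR adjusted p = 0.611), and with F and H alone it was -0.19 (adjusted p = 0.278). With all libraries and the GC trend removed its sign turned, to 0.048 (edgeR adjusted p = 0.739). The ratio of Akt2 to Akt1 was 4.96, 4.73, 5.08 and 4.34 in libraries E to H, and 3.78, 3.90, 4.60 and 4.35 in control libraries A to D. These ranges overlapped through library H (log2 difference 0.20, exact permutation p = 0.0857, adjusted p = 0.171).

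Of the genes of the Rab GTPase-activating proteins, Tbc1d4 rose and Tbc1d1 did not pass the test. Tbc1d4 (chromosome 14, 101442360 to 101609191, minus strand), the AKT substrate that restrains GLUT4 vesicles until insulin acts, was at 68.4, 64.5, 72.0 and 68.6 CPM in libraries E to H, and at 31.9, 54.7, 48.3 and 37.6 CPM in control libraries A to D. The libraries labelled knockout lay close together and above every control, while the controls spread widely. Tbc1d4 averaged 68.4 ± 3.07 CPM in the libraries labelled knockout and 43.2 ± 10.3 CPM in controls (SD, n = 4 each). That is a log2 fold change of 0.66 ± 0.15 (edgeR adjusted p = 0.0248). Libraries E and G, with control-level Nr3c1, were as high as F and H.

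The size of the Tbc1d4 difference was 0.69 with the GC trend removed, where the call held (adjusted p = 0.0334). It was 0.62 without libraries E and G, where the call ended (adjusted p = 0.145). Leaving out D, F, G or H singly ended it as well, with adjusted p-values up to 0.0789, as did dropping the filter on low counts (adjusted p = 0.0719). Without control library B the difference was 0.81, and without control library A it was 0.55, and the call held in both.

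Tbc1d1 (chromosome 5, 64156305 to 64351486, plus strand), the paralogue that is also phosphorylated during contraction by the AMP-activated kinase, was at 52.2, 69.7, 52.5 and 62.1 CPM in libraries E to H, and at 82.5, 36.8, 68.3 and 78.3 CPM in control libraries A to D. Control library B stood lowest of all 8 and A and D highest, so that the controls enclosed the libraries labelled knockout (log2 fold change -0.17 ± 0.24, edgeR adjusted p = 0.693). Without control library B the log2 fold change was -0.36, given with no test because B was singled out by its low Tbc1d1 value. Control library B, lowest in Tbc1d1, was the highest control in Tbc1d4, and A was the reverse. The ratio of Tbc1d1 to Tbc1d4 was 0.764, 1.08, 0.730 and 0.906 in libraries E to H, and 2.59, 0.673, 1.41 and 2.08 in control libraries A to D. Control library B lay below every library labelled knockout and the other controls above them all (log2 difference -0.81, exact permutation p = 0.171, adjusted p = 0.229). Without control library B the difference in the ratio was -1.19, given with no test because B alone made the groups overlap.

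Genes typical of slow fibres summed to 949, 1467, 863 and 996 CPM in libraries E to H, and to 1243, 1667, 1068 and 2417 CPM in control libraries A to D. In the libraries labelled knockout the sums and the Tbc1d1 to Tbc1d4 ratios had the same order (F, H, E, G), and in the controls the sums had the order D, B, A, C and the ratios A, D, C, B. The part of fibre composition in these values was not tested.

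**Figure D2:**
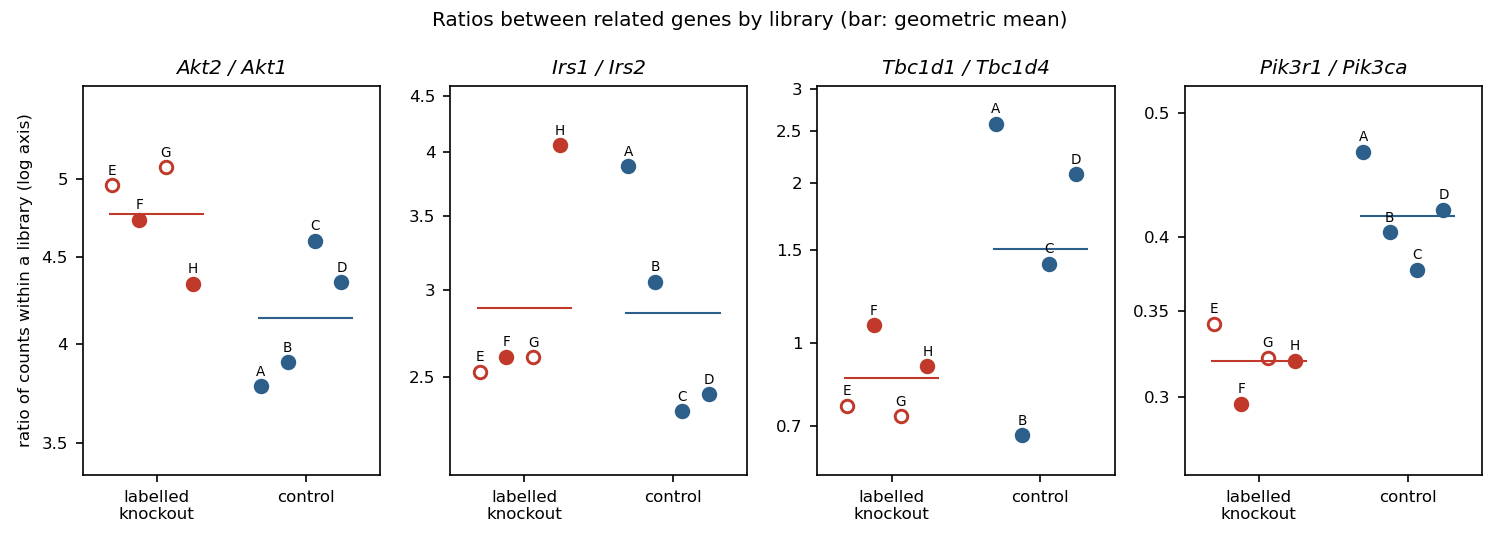
Ratio of read counts within each library (vertical axes, log scale) for Akt2 to Akt1, Irs1 to Irs2, Tbc1d1 to Tbc1d4 and Pik3r1 to Pik3ca, in the 4 libraries labelled knockout (red, left; open circles E and G) and the 4 controls (blue, right), with bars at the geometric means. The Pik3r1 to Pik3ca ratio separates the groups, and in Tbc1d1 to Tbc1d4 control library B (0.673) lies apart from the other controls (1.41 to 2.59).

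The transporter gene itself did not pass the test. Slc2a4 (chromosome 11, 69942539 to 69948188, minus strand), which encodes the insulin-responsive glucose transporter GLUT4, was at 471, 478, 487 and 437 CPM in libraries E to H, and at 528, 422, 534 and 574 CPM in control libraries A to D. Control libraries A, C and D were above all libraries labelled knockout, and control library B was below them all. Slc2a4 averaged 468 ± 21.8 CPM in the libraries labelled knockout and 514 ± 65.0 CPM in controls (SD, n = 4 each; log2 fold change -0.14 ± 0.09, edgeR adjusted p = 0.365). Without control library B the log2 fold change was -0.21, given with no test because B was singled out by its low Slc2a4 value. With all libraries and the GC trend removed it was -0.02 (edgeR adjusted p = 0.899).

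The genes differed in how steady they were between libraries of a group. In the controls the coefficient of variation of CPM was 31.1% for Tbc1d1, 23.8% for Tbc1d4 and 22.8% for Irs1, and between 5.30% (Akt2) and 12.6% (Slc2a4) for the other 7. In the libraries labelled knockout it was 29.3% for Irs1 and 14.2% for Tbc1d1, and between 4.06% (Akt1) and 9.63% (Akt2) for the other 8. Tbc1d4 was among the steady genes there, at 4.49%.

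Levels were compared between genes as CPM per kilobase of the longest annotated transcript. Slc2a4 was highest, at 147 ± 6.82 CPM per kb in the libraries labelled knockout and 161 ± 20.4 in controls (SD, n = 4 each). Akt2 followed at 52.8 ± 5.09 in the libraries labelled knockout and 55.4 ± 2.94 in controls, and Akt1 at 18.7 ± 0.758 in the libraries labelled knockout and 22.6 ± 1.78 in controls. The ranges of these 3 levels did not overlap in either group. Tbc1d1, Irs1, Insr, Pik3ca and Tbc1d4 came next, with group means between 9.14 and 11.2 CPM per kb in the libraries labelled knockout and between 6.66 and 10.3 in controls. In the libraries labelled knockout their order by mean was Insr, Tbc1d4, Irs1, Pik3ca and Tbc1d1, and each range overlapped that of the next, although Insr (10.2 to 11.7 CPM per kb) and Tbc1d4 (9.95 to 11.1) lay wholly above Pik3ca (8.95 to 9.75). In controls the order was Tbc1d1, Irs1, Insr, Pik3ca and Tbc1d4, and each range overlapped that of the next except that Insr (8.66 to 10.1) lay above Pik3ca (7.11 to 8.32). With union exon length in place of the longest transcript Tbc1d1 and Irs1, and Insr and Pik3ca, changed places in controls. There Insr (5.90 to 6.89 CPM per kb) then lay wholly below Pik3ca (6.97 to 8.17). In the libraries labelled knockout the order by exon length was Irs1, Pik3ca, Tbc1d4, Tbc1d1 and Insr. Insr (6.95 to 7.99) then lay wholly below Pik3ca (8.78 to 9.57), and Tbc1d4 (8.40 to 9.38) overlapped Pik3ca. Irs2 was at 4.60 ± 0.204 CPM per kb in the libraries labelled knockout and 4.85 ± 0.411 in controls. Pik3r1 was lowest and apart from Irs2 in both groups, at 3.77 ± 0.295 CPM per kb in the libraries labelled knockout and 3.97 ± 0.448 in controls.

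Fold changes over all genes varied with the GC content of their transcripts. The median log2 fold change was 0.24 in the 1469 tested genes with the lowest GC content and -0.16 in the 1469 with the highest. Pik3ca, with the lowest GC content of the 10 (41.2%), rose, and Akt1, with the highest (59.7%), fell. The fitted trend, as labelled knockout minus control, was 0.18 at the GC content of Pik3ca and -0.16 at that of Akt1 on the log2 scale. By library, the trend at the GC content of Pik3ca ran from -0.0068 in E to 0.19 in H among the libraries labelled knockout, and from -0.18 in A to -0.0046 in B among the controls. Tbc1d4, at 49.9%, lay where the trend was near 0 (-0.03), and Pik3r1, second lowest in GC content at 44.9%, had a trend of 0.08 and a log2 fold change of -0.07. Insr, at 46.8%, had a trend of 0.04.

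**Figure D3:**
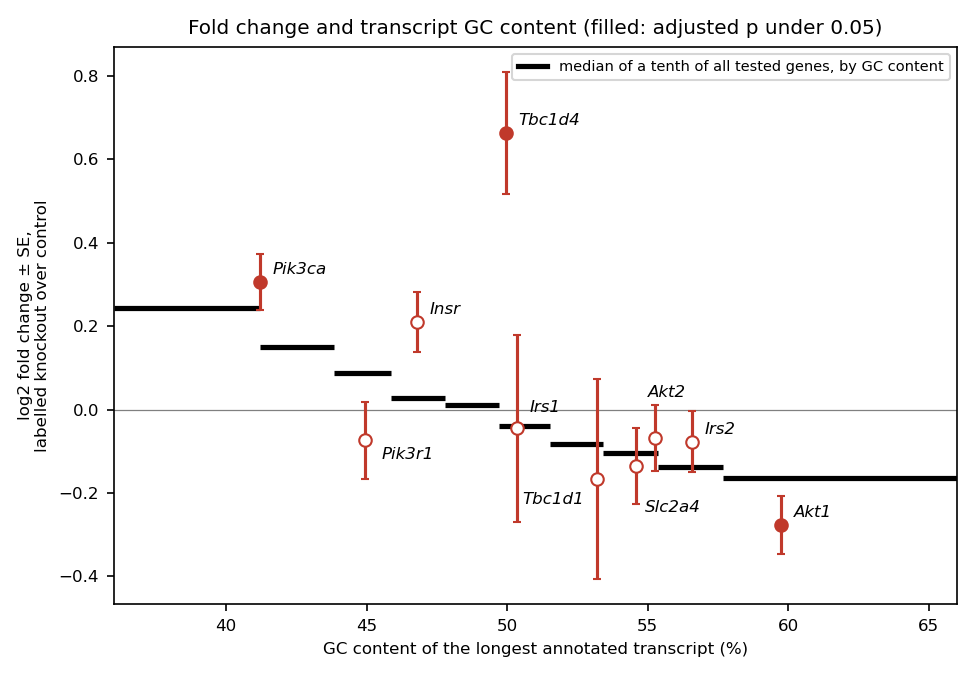
Log2 fold change of the 10 genes, labelled knockout over control (vertical axis, points ± SE, filled where the adjusted p is under 0.05), against the GC content of the longest annotated transcript (horizontal axis, %), with bars at the medians of 10 equal bins of all tested genes. The bars descend from 0.24 at the lowest to -0.16 at the highest GC content, and Tbc1d4 stands 0.66 above 0 at mid-range.

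**Figure D4:**
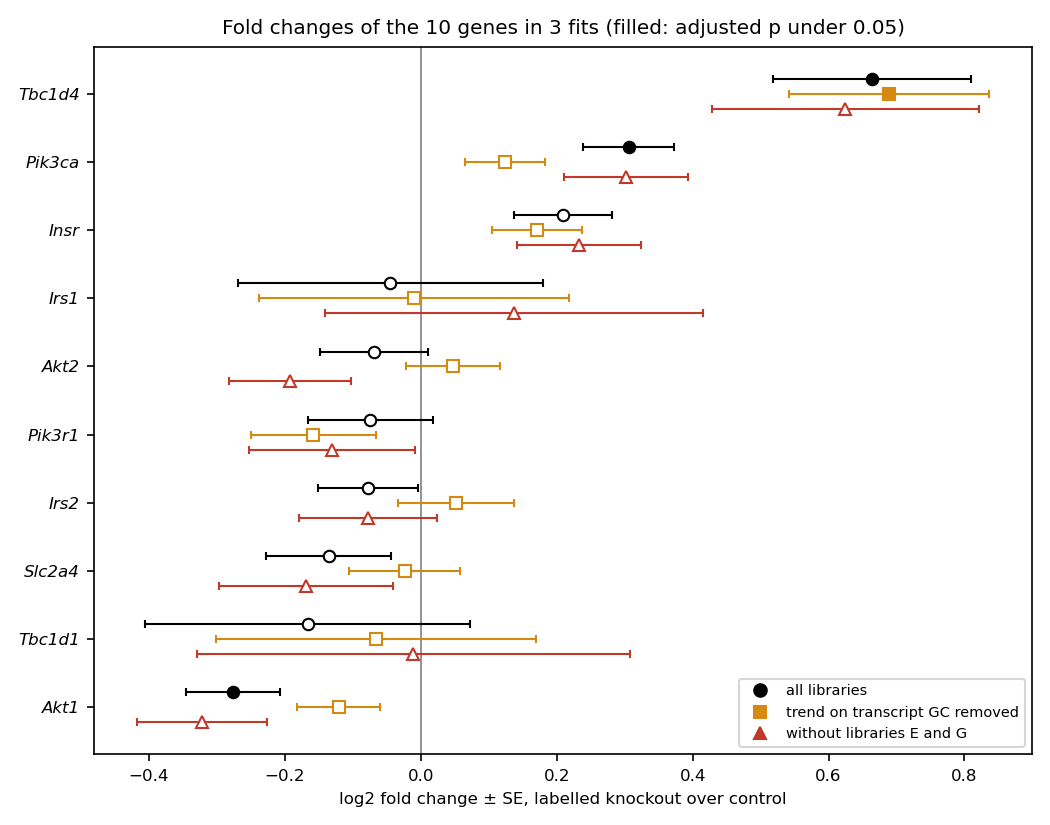
Log2 fold change ± SE, labelled knockout over control (horizontal axis), of each gene in 3 fits: all libraries (black circles), the trend on transcript GC content removed (orange squares) and libraries E and G left out (red triangles), filled where the adjusted p is under 0.05. Tbc1d4 stays between 0.62 and 0.69, while Pik3ca and Akt1 move to 0.12 and -0.12 with the trend removed.

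Genes whose levels followed the 3 called genes most closely over the 8 libraries were sought among 10615 named genes, by Pearson correlation of log2 CPM, as a description. For Tbc1d4 they were Cstf3, a subunit of the cleavage stimulation factor that acts in mRNA 3′ end formation (r = 0.990), Hadhb, the beta subunit of the mitochondrial trifunctional protein of fatty acid oxidation (r = 0.983), and Klhl31, a kelch-like protein of muscle (r = 0.983). With the group means removed these values were 0.965, 0.944 and 0.950, over the same libraries that chose the genes. Hadhb averaged 324 CPM in the libraries labelled knockout and 267 CPM in controls (log2 fold change 0.28, edgeR adjusted p = 0.0334). The call on Hadhb ended with the GC trend removed and without libraries E and G. Leaving out A, C, D, E, F, G or H singly also ended it. For Pik3ca they were the tyrosine kinase gene Abl2 (r = 0.984), Sfmbt1 (r = 0.980) and the RNA-binding protein gene Nova1 (r = 0.980). For Akt1 they were the transcription factor gene Rfx2 (r = 0.975), Lmf2 (r = 0.972) and Plekhg2 (r = 0.971). The libraries of a point share depth and base composition, and all 9 values were chosen as the highest of many.

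The other genes of the pathway were read in 5 lists by role, of which 131 genes were tested and 15 (11.5%) were called, against 8.45% of all genes. Among 22 tested modulators of the receptor and IRS proteins, 2 rose and 1 fell, with a median log2 fold change of 0.00 against -0.01 over all genes. The insulin-degrading enzyme gene Ide averaged 301 ± 15.7 CPM in the libraries labelled knockout and 142 ± 7.09 CPM in controls (log2 fold change 1.09, edgeR adjusted p = 2.0e-05), and this was called in each of the 17 alternative fits. Socs6, a suppressor of cytokine signalling family member that binds the insulin receptor, was at 31.2 to 41.8 CPM in the libraries labelled knockout and 23.9 to 29.4 CPM in controls (0.43, edgeR adjusted p = 0.0229), and with the GC trend removed it was at 0.22 (adjusted p = 0.106). Its call also ended without libraries E and G (adjusted p = 0.0608) and on leaving out A, C, G or H singly (up to 0.0758). Ptprf, the receptor tyrosine phosphatase LAR that acts on the insulin receptor, was at 1.78 to 2.39 CPM in the libraries labelled knockout and 3.29 to 6.31 CPM in controls (-1.02, edgeR adjusted p = 0.0161). Its call ended without libraries E and G, at -1.15 (adjusted p = 0.0791), and without library G alone (adjusted p = 0.0539). Socs1, at 0.242 to 1.83 CPM in the libraries labelled knockout and 0.110 to 0.898 CPM in controls, had a larger log2 fold change (1.71) that did not pass (adjusted p = 0.201) and was picked out after its values were seen.

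Of 28 genes at the phosphoinositide and AKT step, 1 rose and 1 fell (median 0.04). Rictor, the defining subunit of the mTOR complex that phosphorylates AKT, averaged 31.3 ± 0.941 CPM in the libraries labelled knockout and 18.8 ± 1.69 CPM in controls, and this was called in each of the 17 alternative fits. Trib1, a pseudokinase of the tribbles family, averaged 12.5 ± 0.123 CPM in the libraries labelled knockout and 17.4 ± 2.85 CPM in controls (-0.47, edgeR adjusted p = 0.0264), and its call ended without libraries E and G, with the GC trend removed and on leaving out A, C, F, G or H singly.

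Of 43 genes of glucose transport and GLUT4 traffic, 3 rose and 1 fell (median 0.10). Rab4a, a small GTPase of early endosome recycling, was at 15.3 to 17.4 CPM in the libraries labelled knockout and 7.74 to 9.29 CPM in controls, a log2 fold change of 0.93 that was called in each of the 17 alternative fits. Ralgapb, the shared beta subunit of the Ral GTPase-activating complexes, averaged 71.8 ± 2.90 CPM in the libraries labelled knockout and 59.3 ± 2.28 CPM in controls (log2 fold change 0.28, edgeR adjusted p = 0.0191), a call that ended without libraries E and G (adjusted p = 0.11) and on leaving out C or G singly (up to 0.0744). Stxbp3, which encodes the syntaxin-binding protein Munc18c, was at 35.1 to 40.8 CPM in the libraries labelled knockout and 30.6 to 33.3 CPM in controls (0.24, edgeR adjusted p = 0.0498), and with the GC trend removed it was at 0.05. The call on Stxbp3 ended without libraries E and G (adjusted p = 0.173), and E was the only library whose removal alone left it. Cav3, the caveolin of muscle fibres, was at 35.5 to 44.1 CPM in the libraries labelled knockout and 54.9 to 66.4 CPM in controls, a fall of 0.60 on the log2 scale that was called in each of the 17 alternative fits. Picked out after their values were seen, the hexokinase gene Hk2 averaged 349 CPM in the libraries labelled knockout and 393 CPM in controls (adjusted p = 0.325), and the basal transporter gene Slc2a1 6.92 CPM in the libraries labelled knockout and 7.18 CPM in controls (adjusted p = 0.815).

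Of 22 targets of AKT and mTOR complex 1, 1 rose and 2 fell (median -0.05). Foxo6, a forkhead factor, averaged 5.23 ± 1.23 CPM in the libraries labelled knockout and 8.28 ± 0.634 CPM in controls (-0.66, edgeR adjusted p = 0.0233), a call that ended on leaving out A, G or H singly. The translation inhibitor gene Eif4ebp1 averaged 22.1 CPM in the libraries labelled knockout and 34.6 CPM in controls (-0.65, edgeR adjusted p = 0.0499). The glycogen-targeting gene Ppp1r3a averaged 407 CPM in the libraries labelled knockout and 274 CPM in controls (0.57, edgeR adjusted p = 0.0461), with overlapping groups. Leaving out A, C, D, F, G or H singly ended both of these calls, and leaving out B ended that on Ppp1r3a. With the GC trend removed edgeR called none of the 22 (8 had an unadjusted p under 0.05), nor did it without libraries E and G (7 had an unadjusted p under 0.05). Likewise picked out afterwards, the forkhead genes Foxo1 and Foxo3, which AKT excludes from the nucleus, had log2 fold changes of -0.20 and -0.08 (edgeR adjusted p = 0.34 and 0.445). Of 16 tested factors described at the Slc2a4 promoter, 3 rose (median -0.06): Mef2a (0.41), which binds that promoter, the deacetylase gene Hdac4 (0.35) and Sp1 (0.26). Hdac4 remained called with the GC trend removed, and Mef2a and Sp1 did not, at 0.25 and 0.14. The call on Sp1 also ended on leaving out A, C, D, F, G or H singly and with upper-quartile scaling. Without libraries E and G edgeR called none of the 16, and 7 had an unadjusted p under 0.05.

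**Figure D5:**
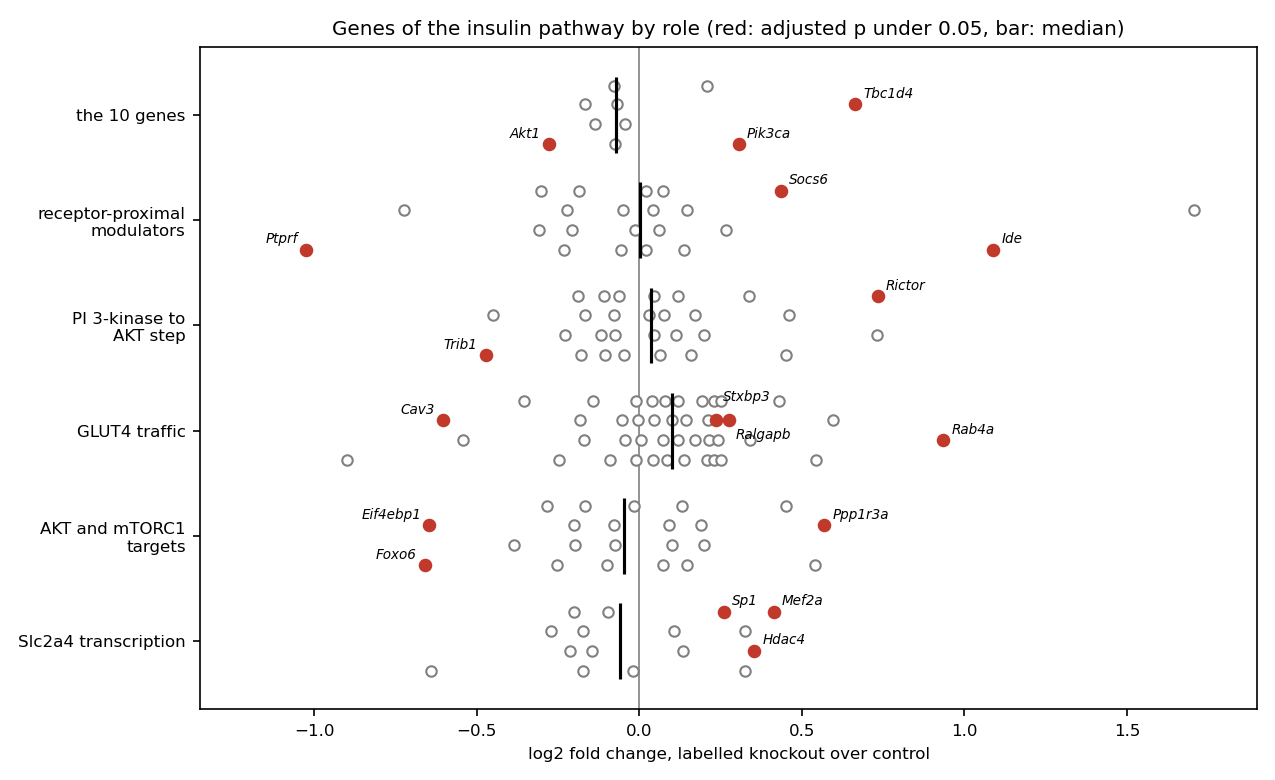
Log2 fold change, labelled knockout over control (horizontal axis), of each tested gene in the 10-gene set and the 5 pathway lists (rows), with bars at each list's median. Red, named points have an adjusted p under 0.05, and the medians lie between -0.07 and 0.10.

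Whole muscle also holds other cells that express insulin pathway genes. All 7 Schwann cell markers fell, and they summed to 64.1 to 87.2 CPM in the libraries labelled knockout and 174 to 317 CPM in controls. Of 6 smooth muscle markers 4 fell, with sums of 3327 to 3955 CPM in the libraries labelled knockout and 3336 to 4575 CPM in controls, most of it from Des, a gene fibres also express that did not pass the test (edgeR adjusted p = 0.719). Of 8 macrophage markers 2 rose (56.6 to 81.8 CPM in the libraries labelled knockout and 38.6 to 65.0 CPM in controls). All 8 had log2 fold changes above 0, with a median of 0.47. Of 8 endothelial markers 1 rose and 2 fell (363 to 385 CPM in the libraries labelled knockout and 387 to 416 CPM in controls). Of 7 fibroblast markers 1 rose and 1 fell (972 to 1522 CPM in the libraries labelled knockout and 1063 to 1678 CPM in controls), while DESeq2 and limma-voom called 5 each. Over all genes tested DESeq2 called 13.8% and limma-voom 12.3%, against 8.45% by edgeR. Without libraries E and G, edgeR called 6 of the 7 Schwann cell and 3 of the 6 smooth muscle markers, and none of the macrophage, endothelial or fibroblast markers (2, 4 and 4 at an unadjusted p under 0.05). With the GC trend removed it called none of the fibroblast markers (4 at an unadjusted p under 0.05).

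Adipocytes also respond to insulin through GLUT4. Their markers summed to 265 to 363 CPM in the libraries labelled knockout and 205 to 377 CPM in controls, and all 8 tested had log2 fold changes above 0, with a median of 0.65. None was called by edgeR, DESeq2 or limma-voom (0, 1 and 5 at an unadjusted p under 0.05). Of 5 erythroid markers none was called by these tools (none at an unadjusted p under 0.05). Of 5 satellite cell markers none was called by edgeR and 1 by DESeq2, with 2 at an unadjusted p under 0.05 in each, and edgeR called 1 without libraries E and G. Of 11 fast fibre markers 2 fell and of 11 slow fibre markers 1, and without libraries E and G edgeR called none of either (4 and 1 at an unadjusted p under 0.05). With all libraries, all 11 slow fibre markers had log2 fold changes below 0, with a median of -0.56. Of the fast fibre markers 1 was above 0 and the others below, with a median of -0.25. No marker was at 0 in all libraries, and Ucp1 and Cx3cr1 were below 1 CPM in all. The part of these cell types in the values of Tbc1d4, Pik3ca and Akt1 was not tested.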

How the data were processed

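Poly(A) RNA was purified from 700 ng of total RNA per sample for dUTP-stranded libraries, as the labels' protocols state. The submitters' processing notes name bcl2fastq 2.17.1.14 for base calls, TopHat2 for alignment to mm10, HOMER and edgeR. The authors deposited raw counts per Ensembl gene (48709 genes), and the annotation and strand setting of the counting are not given. Columns were assigned to groups by name and lettered in table order. No 2 libraries of the same group agreed within sampling noise (smallest chi-square over degrees of freedom 13.1), and pairs between groups were not compared.

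Genes passing filterByExpr at its defaults were scaled by TMM. The test was glmQLFTest after a robust glmQLFit in edgeR 4.0.16 under R 4.3.3, with Benjamini-Hochberg adjustment over all 14712 genes and a threshold of 0.05. Alternatives were upper-quartile scaling, size factors from DESeq2, library size alone, no filter, a stricter filter, the DESeq2 1.42.0 Wald test, limma-voom (limma 3.58.1), the GC trend removed, libraries E and G left out, and each library left out in turn. The limma-voom fit gave each library a quality weight. The SE is the absolute log2 fold change over the square root of F. The fit was tested on simulated data. Ratios of related genes used two-sided exact permutation tests over 70 arrangements. GC content and lengths came from GENCODE M21, and the GC trend (lowess, span 0.3) was removed as an offset for the 14687 tested genes with a record. Further genes were named by a fixed rule: called members of each list, up to 5, and 3 genes most like each called gene. Members, lists and alternatives were chosen with earlier results of these data known.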

Additional observations from a re-analysis of the deposited data

Results flagged for a closer look

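Among 76 groups of 4 libraries read for the genes and ratios named, 5 held 1 library far from the other 3 (gap over range above Dixon's 95% critical value), where chance flags about 1 in 20 groups. All 5 were in the libraries labelled knockout. Irs1 was at 124 CPM in library H, where the next highest was 77.1 CPM, and the log2 ratio of Irs1 to Irs2 was 2.02 there, against 1.38 in the next library. Pik3r1 was at 23.7 CPM in library F, where the next lowest was 27.8 CPM. Rab4a was at 17.4 CPM in library E, with the next at 15.6 CPM. Trib1 was at 12.7 CPM in library H, with the next at 12.5 CPM, in a group whose whole range was narrow.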

How the results depend on the processing

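No paired analysis was possible because the columns of the count table carry no replicate number that a label gives. The 1243 genes called became 2026 by the DESeq2 Wald test, 683 once the GC trend was removed, 226 without libraries E and G, and 373 to 1794 with 1 library left out. The 3 calls among the 10 genes became 1 with the GC trend removed, 0 without E and G by edgeR, and 0 to 3 with 1 library left out. The 0 rests on fewer libraries, with Tbc1d4, Pik3ca and Akt1 at log2 fold changes of 0.62, 0.30 and -0.32. With 1 library left out, list counts ran from 1 to 5 (receptor modulators), 1 to 2 (phosphoinositide and AKT step), 2 to 9 (GLUT4 traffic), 0 to 6 (AKT targets) and 2 to 6 (Slc2a4 promoter factors). By DESeq2 these counts were 8 for GLUT4 traffic, 7 for AKT targets and 5 for promoter factors, and by limma-voom 9, 6 and 5. Under removal of the GC trend they were 1 for the phosphoinositide and AKT step, 0 for AKT targets and 1 for promoter factors, and with no filter 1 for AKT targets. Without E and G they were 1, 1, 2, 0 and 0 in the order of the lists above. Some directions turned. The log2 fold change of Irs1 was 0.027 by library size alone, 0.14 without E and G, and -0.27 to 0.072 with 1 library left out (above 0 without A, B, E, F or G). That of Irs2 was 0.051 with the GC trend removed, and that of Akt2 was 0.048 then and 0.0059 by library size alone. The difference in the Irs1 to Irs2 ratio was 0.02 with all libraries, -0.080 with the GC trend removed and -0.15 to 0.17 with 1 library left out. That range was 0.16 to 0.25 for Akt2 to Akt1, -1.19 to -0.55 for Tbc1d1 to Tbc1d4 and -0.42 to -0.32 for Pik3r1 to Pik3ca. Of the fold changes of the 10 genes under the 17 alternatives, 138 kept direction and call, 20 lost a call, 2 gained one and 10 turned. The cause of these changes was not tested. Among all genes called, 69.8% were higher under library size alone and 47.8% under TMM. Each of the 10 genes held at least 909 counts in every library, and counting error bears more on genes of few CPM such as Ptprf.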
